A study of Homo sapiens with 12 samples.

Results

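The EGR, IER and NR4A1 immediate early genes are a set of 10 serum-responsive genes taken from the count table by their symbols: EGR1, EGR2, EGR3, IER2, IER3, IER5, IER5L, NR4A1, CSRNP1 and SRF, the transcription factor gene grouped with them. All 10 had counts, out of 26334 genes in the table, of which 18937 had at least 1 count. EGR3 was too low to test, so 9 of the 10 were among the 12032 genes that averaged 10 or more counts per library. The rule uses symbols and no measured value, although it was written with earlier results of these data known.

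The libraries came from shA673-1c cells, an Ewing sarcoma line, grown in medium with 10% fetal bovine serum and the selection antibiotics blasticidin and zeocin. Each of the 12 sample titles also carries the tag CTL, and the paper calls the cells A673. Cells in 6-well plates received 5 µM actinomycin D, a compound that intercalates in DNA and blocks transcription, and poly(A) RNA was sequenced after 0, 1, 2 and 4 h with 3 replicates per time, 12 libraries in all. The labels call the replicates biological and describe all 12 libraries as 1 cell line, and the 0 h libraries are the only reference group. With new transcription blocked, the loss of a transcript over the 4 times is read as its decay, relative to the other transcripts of the library.

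Immediate early genes are switched on within minutes of serum, growth factor or stress signals, without new protein synthesis. Many carry serum response elements, CArG boxes bound by SRF together with ternary complex factors such as ELK1 or with actin-regulated cofactors of the MRTF family. Their transcripts are known for short lives, and AU-rich elements in the 3′ untranslated region are one of the signals through which such transcripts are destroyed. EGR1, EGR2 and EGR3 encode zinc finger transcription factors, NR4A1 an orphan nuclear receptor, and CSRNP1 a nuclear protein with a cysteine- and serine-rich region. IER2, IER3, IER5 and IER5L are named as immediate early response genes, and IER5L is the paralog of IER5. IER3 is known as a regulator of cell survival and IER5 as a modulator of the heat shock response.

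Over 4 h of actinomycin D, 8 of the 9 tested genes fell by the slope of log2 level against time, where 32.1% of all tested genes fell. None of the 9 rose, where 30.7% did. IER3, IER5, IER5L and CSRNP1 lost about as much per hour as each other, IER2, EGR2 and EGR1 came next, NR4A1 was slower, and SRF had the slowest estimate. In the 8 that fell, other than NR4A1, most of the loss fell between 0 and 2 h. From 2 to 4 h only IER5 passed as lower, where 18.3% of tested genes fell. IER2, IER5L and EGR1 had no detectable further loss after 2 h relative to the other transcripts. Neither had EGR2, with a less precise estimate (-0.61 ± 0.57 on the log2 scale). These calls come from a fit that did not pair the libraries. A fit that blocked on the replicate number also called SRF lower by slope, where 34.8% of genes were. It called IER3 and CSRNP1 lower from 2 to 4 h as well, where 25.3% of genes were. Relative to GAPDH plus ACTB, IER2 also fell after 2 h (-0.36 on the log2 scale, adjusted p = 0.0403 by edgeR). On that scale 7729 of the 12032 tested genes were lower by slope. In bulk libraries a loss in some of the cells and a smaller loss in every cell cannot be told apart.

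The regulatory sequences of these genes are shown first, since the serum response element is a sequence that SRF is known to bind and AU-rich elements are known in short-lived transcripts. RefSeq promoter windows (GRCh38.p14, each 300 bases long and mostly upstream of a transcription start) were matched by symbol for 8 of the 10 genes, and IER3 and EGR3 had none in the table used. Both strands were searched for the CArG box. It was present in 1.29% of all 35116 windows, and in a window of 1.55% of the 9155 tested genes that had one. Among these 8 genes it was found in EGR1, EGR2 and SRF. The 150 bases directly before the start of the 3 genes follow, on the gene's own strand, with CArG boxes in capitals and, in SRF, also the EGR-type site GCGGGGGCG.
EGR1, chr5:138465329-138465478, plus strand: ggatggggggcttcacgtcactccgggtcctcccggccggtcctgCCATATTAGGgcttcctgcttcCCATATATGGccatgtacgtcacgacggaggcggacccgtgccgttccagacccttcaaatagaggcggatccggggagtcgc
EGR2, chr10:62816367-62816516, minus strand: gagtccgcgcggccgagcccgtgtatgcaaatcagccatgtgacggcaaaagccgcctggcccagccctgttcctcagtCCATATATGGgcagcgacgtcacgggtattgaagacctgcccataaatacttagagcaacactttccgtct
SRF, chr6:43171119-43171268, plus strand: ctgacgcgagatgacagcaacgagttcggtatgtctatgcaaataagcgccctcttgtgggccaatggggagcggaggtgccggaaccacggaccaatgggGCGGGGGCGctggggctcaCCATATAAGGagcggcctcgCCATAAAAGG

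The 2 CArG boxes of EGR1 begin 105 and 83 bases before the start site, the 1 of EGR2 begins 71 bases before it, and the 2 of SRF begin 30 and 10 bases before it. One EGR1 box and the EGR2 box share the same letters, CCATATATGG. The cAMP response element TGACGTCA and the EGR site GCGTGGGCG were in no window of the 8 genes. They were in 1.85% and 0.795% of all windows, and in a window of 3.97% and 1.77% of the 9155 tested genes. The site GCGGGGGCG was in 5.07% of all windows and in a window of 10.9% of the 9155 tested genes. Among the 8 genes it was found in SRF. These matches describe letters in a short window. A promoter outside it was not searched, and the windows of NR4A1 begin at upstream starts, far from the start of its canonical transcript.

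The AU-rich 7-mer TATTTAT, which holds the classic pentamer ATTTA, was searched in the 3′ untranslated region of the canonical GENCODE v44 transcript, on the transcript strand. It was present in 4 of the 10 genes (IER3, IER5, SRF and CSRNP1), against 37.6% of the 10813 tested genes with such a region. The windows below show up to 30 bases around each site or cluster of overlapping or neighbouring sites, with the 7-mer in capitals.
IER3, bases 266 to 282 of 737: aattaaTATTTATatgTATTTATgtacgtc
IER3, bases 318 to 324: tgtgtacgtaaTATTTATtttaacttatgc
IER3, bases 381 to 387: aggtctcttggTATTTATtgagctttgtgg
IER5, bases 2105 to 2111 of 3014: ccataataatgTATTTATagaattaaacat
IER5, bases 2568 to 2582: cttccttTATTTATTTATTTATttaattat
CSRNP1, bases 153 to 159 of 1200: ttctctggattTATTTATttgttttaactt
SRF, bases 45 to 51 of 2316: atggcaccactTATTTATtgttgccttttc
SRF, bases 1387 to 1393: tgtaacctcagTATTTATgtaatttgtaca

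IER3 held 4 of the 7-mers in 737 bases and IER5 held 4 in 3014, of which 3 overlap in 1 run. Over the 10 genes together the 7-mer came at 0.714 per kb, against 0.33 per kb over all tested genes. The pentamer was present in 9 of the 10 genes and was not found in IER2, against 75.1% of tested genes, and at 2.34 per kb over the 10 genes together against 2.31 per kb over all tested genes. Over the tested genes the median slope was -0.03 log2 units per hour with the 7-mer and 0.04 without it. Within the set, IER3, IER5 and CSRNP1 held the 7-mer and IER5L had none, with slopes close to each other. IER2, EGR2, EGR1 and NR4A1 had none and less steep slopes, and SRF had 2 and the slowest estimate. Whether the 7-mer has a part in the loss was not tested.

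The genes are compact. IER5 and IER5L have a single exon and the 3 EGR genes, IER2 and IER3 have 2 in their canonical transcripts, so 7 of the 10 have 1 or 2 exons. Of the 10822 tested genes matched to 1 protein-coding canonical transcript, 5.73% have 1 or 2 exons, and the median is 9 exons. Genes with 1 or 2 exons had a median slope of -0.26 log2 units per hour, and 70.8% of them fell. CSRNP1 has 5 exons, and NR4A1 and SRF have 7 each. In GRCh38 the genes lie at chr5:138465479-138469303 (EGR1), chr10:62811996-62816366 (EGR2), chr19:13150411-13154911 (IER2), chr6:30743199-30744547 (IER3), chr1:181088700-181092900 (IER5), chr9:129175552-129178261 (IER5L), chr12:52051442-52059503 (NR4A1), chr6:43171269-43181506 (SRF) and chr3:39141855-39153591 (CSRNP1), with EGR3 on chromosome 8. These positions are those of the reference annotation. The submitters' notes name hg19. Genes annotated on the opposite strand overlap IER2, IER3, IER5L, NR4A1, CSRNP1 and EGR3, and 1 on the same strand overlaps EGR2. Whether the counting used strand is not given in the sources used here, so reads of such pairs may not have been told apart.

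Library totals ranged from 9147018 to 11194705 counts, and no 2 replicates of a time agreed within sampling noise, in 12 pairs. Levels are given as CPM, each count as a share of its library total after TMM scaling. Of 8 genes known to mark Ewing sarcoma cells, 7 were detected in every library, and CD99, a defining surface marker, was listed at 0 in all 12. Of these 7, 3 fell by slope, 1 rose and 3 did not pass, and the list summed to between 707 and 816 CPM in every library. PRKCB, among those that did not pass, rose in a fit that blocked on the replicate number (0.09, adjusted p = 1.39e-06 by edgeR), where 36.2% of genes were higher. Markers of blood, endothelial and epithelial cells summed to at most 0.91 CPM per list in any library. The blood list went from 0.193 to 0.355 CPM at 0 h to 0.592 to 0.895 CPM at 4 h. The epithelial list went from 0.0887 to 0.196 CPM at 0 h to 0.29 to 0.783 CPM at 4 h, and the endothelial list overlapped between these times. The part of these lists in the results was not tested.

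Per kilobase of canonical transcript, the resting level at 0 h was highest for IER2, at 30.9 ± 3.91 CPM per kb (SD, n = 3), and IER3, at 25.2 ± 2.47. These 2 overlapped between libraries and lay above SRF (14.7 ± 2.03) and IER5 (12.2 ± 0.856), which also overlapped. CSRNP1 (4.79 ± 0.753) and EGR1 (4.2 ± 0.708) came next and overlapped. IER5L followed at 2.53 ± 0.511, then EGR2 at 1.42 ± 0.278 and NR4A1 at 1.27 ± 0.102, the last pair overlapping. EGR3 lay below all of them at 0.0949 ± 0.0718 CPM per kb.

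IER3 had 34.7, 29.9 and 29.0 CPM at 0 h, 15.1, 9.51 and 8.61 at 1 h, 4.37, 2.43 and 2.80 at 2 h and 2.37, 1.74 and 1.57 at 4 h (replicates 1, 2 and 3). Each time lay wholly below the one before, and 6.02% ± 0.731 of the 0 h level was left at 4 h. Its slope was -1.17 ± 0.10 log2 units per hour (SE; edgeR quasi-likelihood test, adjusted p = 5.4e-08, n = 12 libraries), the steepest of the set and number 24 of 12032 from the steepest fall. A straight line through the 4 times gives a half-life of 0.857 h (95% interval 0.726 to 1.05 h), although the times departed from that line (adjusted p = 0.038 by edgeR).

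IER5 had 52.3, 54.2 and 47.2 CPM at 0 h, 28.1, 31.3 and 25.8 at 1 h, 6.05, 8.70 and 4.93 at 2 h and 3.91, 3.00 and 3.13 at 4 h. No time overlapped the next, and 6.55% ± 0.972 was left at 4 h. Its slope was -1.10 ± 0.08 (adjusted p = 1.69e-08 by edgeR), a half-life of 0.908 h (0.782 to 1.08 h). That half-life averages unequal rates of -0.85, -2.12 and -0.49 log2 units per hour over 0 to 1, 1 to 2 and 2 to 4 h.

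IER5L, the paralog of IER5, was measured at a lower level: 8.15, 5.40 and 7.01 CPM at 0 h, 2.49, 2.94 and 2.99 at 1 h, 0.893, 0.506 and 0.483 at 2 h and 0.71, 0.677 and 0.336 at 4 h. The 2 h and 4 h libraries overlapped, and rested on 3 to 9 reads each. Its slope of -1.11 ± 0.12 (adjusted p = 6.69e-07 by edgeR) gives 0.903 h (0.734 to 1.17 h), within the summed errors of that of IER5. That half-life averages unequal rates of -1.28, -2.14 and -0.06 log2 units per hour over the same 3 intervals.

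IER2 had 74.2, 63.1 and 58.0 CPM at 0 h, 36.5, 31.6 and 28.8 at 1 h, 9.72, 8.40 and 7.15 at 2 h and 9.70, 7.15 and 7.50 at 4 h. The replicates kept closely together as shares of their own 0 h level: 49.6% ± 0.45 at 1 h, 12.9% ± 0.515 at 2 h and 12.4% ± 0.967 at 4 h. The slope was -0.84 ± 0.10 (adjusted p = 1.24e-06 by edgeR), with a half-life of 1.19 h (0.961 to 1.58 h) that averages a fast loss and a flat end.

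CSRNP1 had 16.3, 16.8 and 12.4 CPM at 0 h, 11.3, 10.99 and 5.44 at 1 h, 2.08, 2.02 and 1.93 at 2 h and 1.42, 1.35 and 0.336 at 4 h, with replicate 3 lowest at each time. The times did not overlap. Its slope was -1.09 ± 0.11 (adjusted p = 3.55e-07 by edgeR), a half-life of 0.916 h (0.753 to 1.17 h). With a block on the replicate number the times departed from a straight line (adjusted p = 0.000673 by edgeR).

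EGR1 had 11.1, 12.9 and 15.5 CPM at 0 h, 6.31, 6.28 and 5.44 at 1 h, 3.08, 2.93 and 2.51 at 2 h and 2.84, 3.38 and 3.36 at 4 h. The first 3 times did not overlap, and the mean at 4 h (3.19 ± 0.307 CPM) was above that at 2 h (2.84 ± 0.292 CPM) with overlapping libraries. The slope was -0.56 ± 0.09 (adjusted p = 3.9e-05 by edgeR), with a half-life of 1.8 h (1.35 to 2.7 h) that depends on the times used. The slope was -1.10 over 0, 1 and 2 h and -0.28 over 1, 2 and 4 h. Between 0 and 1 h EGR1 was 2.2-fold lower, against 2.02-fold for IER2 and 1.8-fold for IER5, although its slope over 4 h was less steep than theirs.

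EGR2 had 4.13, 5.11 and 3.46 CPM at 0 h, 3.35, 4.12 and 2.00 at 1 h, 1.69, 1.11 and 0.387 at 2 h and 1.18, 0.58 and 0.336 at 4 h. Replicate 3 was lowest throughout, and 0 and 1 h overlapped. The slope was -0.73 ± 0.12 (adjusted p = 4.78e-05 by edgeR), with a half-life of 1.37 h (1.02 to 2.08 h). EGR3 had 0 to 9 reads in each library (mean 3.42), from 0.193 to 0.798 CPM at 0 h and from 0 to 0.224 CPM at 4 h. With genes of at least 1 count kept, its slope was -0.30 ± 0.19 with an adjusted p of 0.237 by edgeR, so a change was not detectable at this depth.

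NR4A1 had 3.44, 2.99 and 3.02 CPM at 0 h, 2.68, 2.84 and 3.36 at 1 h, 2.68, 2.53 and 2.03 at 2 h and 2.49, 1.45 and 0.56 at 4 h. The 4 h replicates stood far apart, at 72.3%, 48.6% and 18.6% of their own 0 h level, on 21, 15 and 5 reads, and all 3 lay below every 0 h library. The slope was -0.27 ± 0.08 (adjusted p = 0.00545 by edgeR), a half-life of 3.69 h (2.31 to 9.15 h). The slopes of single replicates were -0.11, -0.26 and -0.55. Over 0 to 2 h alone the slope was -0.18 with an adjusted p of 0.22, so the call rests on the 4 h libraries.

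SRF had 67.6, 67.1 and 52.4 CPM at 0 h, 63.3, 55.4 and 43.6 at 1 h, 55.96, 54.0 and 43.1 at 2 h and 58.3, 47.4 and 42.98 at 4 h. All times overlapped, and replicate 3 was lowest at each. As shares of the own 0 h level, 86.5% ± 6.25 remained at 1 h, 81.9% ± 1.18 at 2 h and 79.7% ± 8.1 at 4 h (SD, n = 3), and all 3 replicates were below their 0 h level at each later time. The slope of -0.08 ± 0.04 did not pass the test (adjusted p = 0.0666 by edgeR). A fit that blocked on the replicate number passed it (-0.08, adjusted p = 0.00116 by edgeR; 34.8% of genes lower and 36.2% higher in that fit), as did 4 h against 0 h (-0.34, adjusted p = 1.23e-05, with 36.0% of genes lower). Without the 4 h library of replicate 1, or the 0 h or 1 h library of replicate 3, the unblocked slope also passed, with adjusted p from 0.0148 to 0.0374. It passed with library totals (-0.12, adjusted p = 0.00621 by edgeR), where 4702 of 12032 genes were lower. Relative to GAPDH plus ACTB it also passed (-0.22, adjusted p = 1.15e-06), where 7729 of 12032 were.

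By slope, 8 of the 9 tested genes fell where 32.1% of tested genes fell, and none rose where 30.7% did. The median slope was -0.84 log2 units per hour over the 9 genes and 0.01 over all tested genes. The order from IER3 to SRF had 3 steps wider than the summed standard errors of the neighbours: CSRNP1 to IER2, EGR1 to NR4A1, and NR4A1 to SRF. IER3, IER5L, IER5 and CSRNP1 differed by no more than 0.06 at any step. The 4 h libraries against the 0 h ones gave the same 8 genes lower where 31.6% of genes were, and none higher where 28.7% were. The estimated fold was 16.5 for IER3, 15.3 for IER5, 14.3 for CSRNP1, 11.7 for IER5L, 8.05 for IER2, 6.05 for EGR2, 4.11 for EGR1 and 2.11 for NR4A1. The log2 change of NR4A1 (-1.08) moved between -1.60 and -0.70 when single libraries were left out, and without the 4 libraries of replicate 2 it did not pass (-1.09, adjusted p = 0.111 by edgeR). SRF was 1.26-fold lower, which did not pass (adjusted p = 0.0731 by edgeR).

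In the first hour, 5 of the 9 genes fell (EGR1, IER2, IER3, IER5 and IER5L), where 2.24% of tested genes fell and 0.349% rose. IER3 had the largest estimated fall, 1.49 ± 0.19 on the log2 scale (adjusted p = 0.0011 by edgeR). IER5L fell by 1.28 ± 0.22 (adjusted p = 0.00622), within the summed errors of IER3, and EGR1 by 1.14 ± 0.15 (adjusted p = 0.0013). IER2 fell by 1.01 ± 0.12 (adjusted p = 0.000592). Without the libraries of replicate 2 the number of genes called was 0. Without those of replicate 1 it was 3, with IER5 and IER5L no longer passing. CSRNP1 was at -0.72 ± 0.25 (adjusted p = 0.174), and with the block it passed (-0.73, adjusted p = 7.94e-05), as did SRF (-0.21, adjusted p = 0.0129), where 10.5% of genes were lower. EGR2 (-0.43) and NR4A1 (-0.08) did not pass in either fit.

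Between 1 and 2 h, 7 genes fell, where 12.5% of tested genes fell and 3.76% rose. CSRNP1 fell by 2.19 ± 0.32 on the log2 scale, IER5L fell by 2.14 ± 0.32 and IER5 fell by 2.12 ± 0.16, so each ended that hour over 4-fold lower than it began it. EGR2 fell by 1.56 ± 0.42 (adjusted p = 0.022 by edgeR). That call was lost without the 1 h library of replicate 1 or 2, or the 2 h library of replicate 2 or 3 (adjusted p from 0.0626 to 0.0978). NR4A1 (-0.30) and SRF (-0.08) did not pass.

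Between 2 and 4 h only IER5 passed the main test, falling by 0.97 ± 0.21 over the 2 hours (adjusted p = 0.00359 by edgeR), where 18.3% of tested genes fell. With the block, IER3 (-0.76, adjusted p = 0.0127) and CSRNP1 (-0.95, adjusted p = 0.0195) also passed, where 25.3% of genes were lower. IER3 passed without the block when the 1 h library of replicate 1 was left out (adjusted p = 0.0431), and NR4A1 when the 4 h library of replicate 1 was (adjusted p = 0.0202). The difference was -0.06 ± 0.17 for IER2, -0.12 ± 0.44 for IER5L and 0.17 ± 0.20 for EGR1. EGR2, at -0.61 ± 0.57, did not pass either (adjusted p = 0.454 by edgeR), also not with the block (adjusted p = 0.232). IER2 had 74 to 98 reads per library at 2 h and 67 to 82 at 4 h, and IER5L had 3 to 9 at both times. On the scale of GAPDH plus ACTB the difference of IER2 was -0.36 (adjusted p = 0.0403 by edgeR) and that of EGR1 was -0.12, which did not pass. By slope 7729 of 12032 genes were lower on that scale, and the share from 2 to 4 h was not counted.

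**Figure D1:**
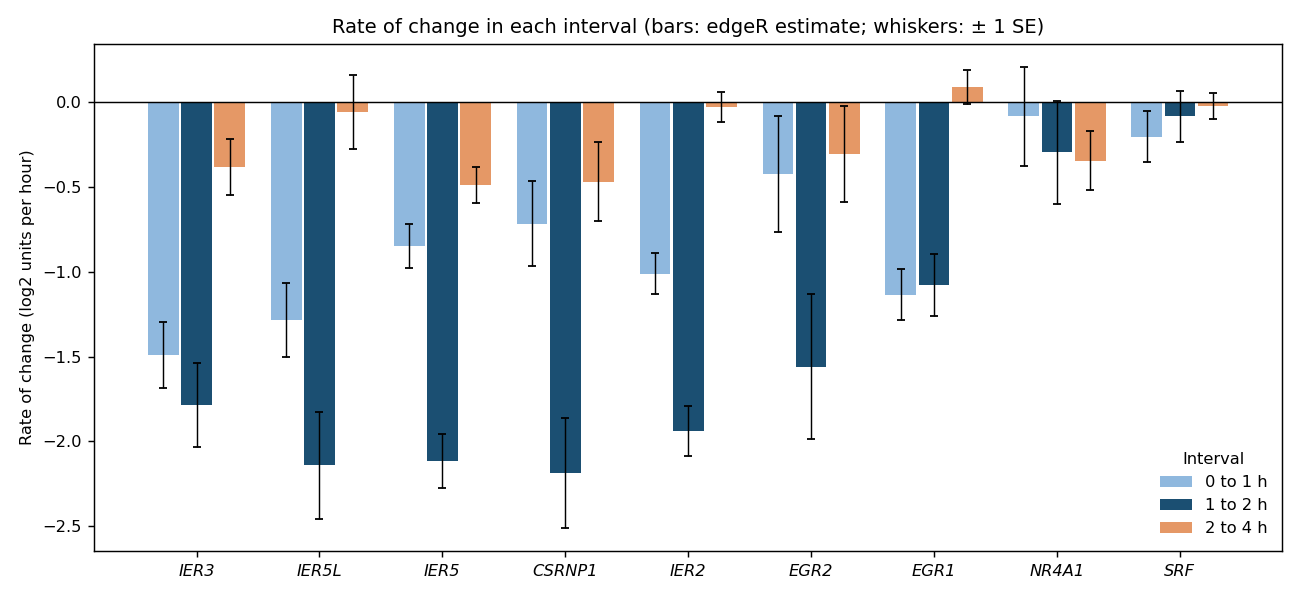
Rate of change of the 9 tested genes (vertical axis, log2 units per hour) in the intervals 0 to 1, 1 to 2 and 2 to 4 h, with genes ordered by slope. Bars are edgeR estimates and whiskers are 1 SE on each side. The 1 to 2 h bar is the longest in IER3, IER5L, IER5, CSRNP1, IER2 and EGR2. The 2 to 4 h bars of IER5L, IER2, EGR2, EGR1 and SRF lie within about 1 SE of 0.

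The change of rate was tested directly. The 4 times departed from a straight line in 5 of the 9 genes (EGR1, IER2, IER3, IER5 and IER5L), where 2.70% of tested genes did. With the block CSRNP1 departed as well (adjusted p = 0.000673 by edgeR), where 17.2% of genes did. The rate from 2 to 4 h was slower than that from 1 to 2 h in 4 of the 9 (EGR1, IER2, IER5 and IER5L), where 1.48% of genes had a higher rate. IER2 changed from -1.94 to -0.03 log2 units per hour, a difference of 1.91 ± 0.21 (adjusted p = 0.000524 by edgeR), and IER5 from -2.12 to -0.49, a difference of 1.63 ± 0.23 (adjusted p = 0.00277). Both calls held without any single library. Without the 4 libraries of replicate 2 neither passed (adjusted p = 0.0972 for IER2 and 0.0888 for IER5). In that fit 0 of 12055 tested genes passed in either direction. IER5 also did not pass without the libraries of replicate 1 (adjusted p = 0.216), where 8 of 12057 genes did. EGR1 (1.17 ± 0.25, adjusted p = 0.0348) and IER5L (2.08 ± 0.48, adjusted p = 0.0488) were close to the threshold. EGR1 lost its call in 8 of the 12 single omissions (all but the 0 h and 4 h libraries of replicate 1 and the 0 h and 1 h libraries of replicate 3; adjusted p from 0.0531 to 0.21). IER5L lost it in 10 (all but the 0 h library of replicate 2 and the 4 h library of replicate 3; adjusted p from 0.0508 to 0.263). With the block, IER3 (1.41, adjusted p = 0.000397) and CSRNP1 (1.70, adjusted p = 0.000891) were added, where 5.52% of genes had a higher rate.

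The loss from 1 to 2 h was not faster than that from 0 to 1 h by the main test in any of the 9 genes, where 0.175% of tested genes were. At an unadjusted p under 0.05 it was so in 3 (CSRNP1, IER2 and IER5), and DESeq2 called 1 (IER5). With the block it was faster in IER5 (-1.27, adjusted p = 5.92e-06), CSRNP1 (-1.45, adjusted p = 0.00105) and IER2 (-0.93, adjusted p = 2.63e-05), where 6.80% of genes were. The unblocked adjusted p was 0.0659 for IER5, 0.128 for IER2 and 0.277 for CSRNP1, and IER5 passed without the 2 h library of replicate 2 (adjusted p = 0.037). EGR1 lost as much in the first hour as in the next (-1.14 and -1.08), a change in rate of 0.06 ± 0.30 that did not pass.

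The other immediate early genes of the serum response behaved in the same direction. Of 24 genes listed, all tested, 22 fell, none rose, and FOSB and MAFF did not pass, beside 32.1% of tested genes lower, with a median slope of -0.60 log2 units per hour. MAFF passed with the block (-0.16, adjusted p = 0.00048 by edgeR). DUSP1, a phosphatase that switches off MAP kinases, fell at -1.46 ± 0.14 from 12.3 to 0.514 CPM. KLF2, a zinc finger transcription factor, fell at -1.24 ± 0.11, and PLK2, a polo-like kinase, at -1.22 ± 0.13. All 3 had slopes steeper than the -1.17 of IER3. FOS, the best known SRF target, was measured at 1.92 CPM at 0 h and fell at -0.40 ± 0.12 on 3 to 23 reads per library.

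The proteins that work with SRF and the EGR factors did not share 1 direction. Of 7 tested, 4 fell, 1 rose and 2 did not pass, beside 32.1% of tested genes lower and 30.7% higher, with a median slope of -0.09. The SRF coactivators MRTFA, listed as MKL1 (-0.47 ± 0.05), and MRTFB, listed as MKL2 (-0.39 ± 0.04), both fell, against an estimate of -0.08 for SRF itself. NAB2, a corepressor that binds EGR1, fell at -0.38 ± 0.03, whereas NAB1, its paralog, was at 0.02 ± 0.04. Among the ternary complex factors, ELK4 fell at -0.09 ± 0.02, ELK1 rose at 0.10 ± 0.02 and ELK3 was at -0.01 ± 0.01. Relative to GAPDH plus ACTB, ELK1 no longer rose.

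Of 5 relatives of the set, 2 were deep enough to test and both fell, beside 32.1% of tested genes lower. CSRNP2 fell at -0.49 ± 0.04 and CSRNP3 at -0.38 ± 0.08, against -1.09 for CSRNP1. EGR4, NR4A2 and NR4A3 had means of 0.5, 4.75 and 9.25 reads per library. With genes of at least 1 count kept, 4 of the 5 passed as lower, where 4054 of 18937 genes did. The calls added by that filter rest on these few reads.

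Cytoskeletal genes that SRF also drives went the other way on this relative scale. Of 13 listed, 12 were tested (MYL9 was listed at 0), 7 rose, none fell and 5 did not pass, beside 30.7% of tested genes higher, with a median slope of 0.11. TAGLN, an actin-binding protein of smooth muscle, rose at 0.16 ± 0.05, FLNA, the actin crosslinker filamin A, at 0.16 ± 0.04, ACTA2, smooth muscle actin, at 0.15 ± 0.03, and TAGLN2 at 0.13 ± 0.02. With the block 11 rose and 1 (FHL2) fell. Relative to GAPDH plus ACTB, of which ACTB is itself on the list, none rose and 2 fell, so the direction of this list depends on the scale. On that scale the median slope of all tested genes moved from 0.01 to -0.13, with 7729 of 12032 genes lower and 112 higher. The 8 immediate early genes that fell by slope were among those lower under it as well.

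**Figure D2:**
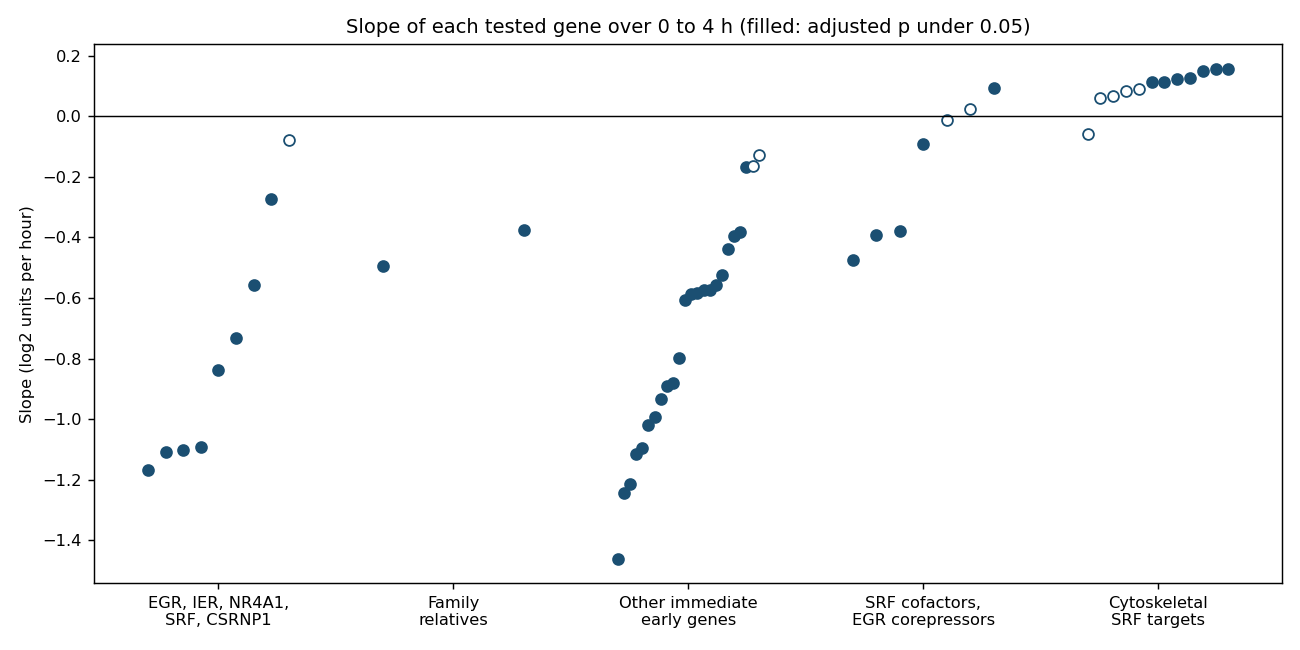
Slope over 0 to 4 h (vertical axis, log2 units per hour) of each tested gene of the 5 lists, ordered by slope within a list. Filled points had an adjusted p under 0.05 by edgeR and open points did not. The 9 genes of the set run from -1.17 (IER3) to -0.08 (SRF, open), the other immediate early genes from -1.46 to -0.13, and the cytoskeletal genes from -0.06 to 0.16.

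The genes whose levels most resembled the mean profile of the 9 tested genes, by Pearson's r of log2 CPM over the 12 libraries, were DNMBP (r = 0.991), TSC22D2 (0.99), ZNF239 (0.99), FAM43A (0.989) and MARS2 (0.987). The 12 libraries hold only 4 times, so these coefficients describe a shared time course. DNMBP went from 111.3 CPM at 0 h to 76.4, 44.7 and 37.7 CPM at 1, 2 and 4 h, a smaller loss with the same shape. Within the set, r with that profile was 0.977 for IER3 and for CSRNP1, 0.764 for NR4A1 and 0.72 for SRF. Each of these genes is itself part of the profile, which raises its r, so these values cannot be set against those of the outside genes.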

How the data were processed

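Poly(A) RNA of 12 libraries was measured with a stranded kit. The deposited values are whole-number raw counts, 1 row for each gene symbol, made by the authors, and the submitters' processing notes name FastQC, STAR and hg19. The counting tool, its annotation and its strand setting are not given in the sources used here. Each column was matched to its sample by title, with 0 left unmatched.

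Tests used edgeR 4.0.16 (R 4.3.3). Genes under a mean of 10 counts were left out, TMM factors were applied, and quasi-likelihood models took time either as numeric hours (slope) or as 4 groups, without a block, at a Benjamini-Hochberg adjusted p of 0.05 over all tested genes. A half-life is -1 divided by the slope. Library totals of 9147018 to 11194705 set the precision, and intervals cover the spread between these libraries. Scripts were tested on simulated data with 200 changed genes. The tests of single changes in rate were added after the values were seen. All 10 genes of the set are named, for each other list at most 4 of its steepest called genes, and the 5 genes most like the mean profile; other names (FOS, the remaining cofactors, FHL2, MYL9 and CD99 among them) were chosen after their values were seen. The genes and lists were chosen with earlier results of these data known.

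The replicate numbers come from the labels. Same-numbered libraries of different times deviated together from their group means in all 18 pairs (correlation 0.3 to 0.612), against -0.403 to 0.0842 in 36 pairs of different numbers, so the numbers pair the samples and the fit with the replicate block is given where it changes a call. The alternatives were other scalings, DESeq2 1.42.0, other count filters, the block, fewer times and the omission of replicates or single libraries. Sequences are from RefSeq (GRCh38.p14) and GENCODE v44 (GRCh38).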

Additional observations from a re-analysis of the deposited data

How the results depend on the processing

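By slope, 8 to 9 of the genes fell under each scaling, DESeq2, the replicate block, 1 to 4 h alone and each omission, and 7 with 0, 1 and 2 h alone, and no other call than those given above changed with the block. A mean of at least 30 counts left 5 by slope and 5 for 4 h against 0 h, since 3 of those called were no longer tested. For 4 h against 0 h the count was otherwise 7 to 9. Relative to GAPDH plus ACTB, 6 genes (IER2, IER3, IER5, NR4A1, SRF and CSRNP1) fell from 2 to 4 h and 2 slowed after 2 h. The share of all genes falling from 2 to 4 h on that scale was not counted. By slope, 7729 of 12032 genes were lower on it and 112 higher. So 98.6% of its slope calls were lower, against 51.1% in the reported fit and 67.7% with library totals. On that scale 0 cofactors rose, 2 cytoskeletal genes fell and 0 rose. The median level at 0 h was 16.6 CPM, and EGR1 was at -0.12 from 2 to 4 h. The replicate block gave 3 genes falling from 2 to 4 h, 3 faster after 1 h, and 11 cytoskeletal genes rising with 1 falling. Library totals, DESeq2 and the filter of 1 count each gave 1 gene faster after 1 h, and that filter gave 4 falling relatives. With 0, 1 and 2 h alone, 0 cofactors and 1 cytoskeletal gene rose. Over the omissions the count ranged from 0 to 5 for 1 h against 0 h, 0 to 2 for 4 h against 2 h, 0 to 5 for the departure from a line, 0 to 1 for faster after 1 h and 0 to 5 for slower after 2 h. Each 0 but that for faster after 1 h came without the 4 libraries of replicate 2, which leaves 2 libraries per time. In that fit 0 of 12055 tested genes were called for a departure from a line or for a change of rate. Differences that changed sign over omissions, none of them called, ran from -0.20 to 0.056 for IER2, -0.40 to 0.22 for IER5L and -0.17 to 0.048 for SRF from 2 to 4 h, from -0.22 to 0.044 for SRF from 1 to 2 h, and from -0.21 to 0.049 for NR4A1 from 0 to 1 h. Apart from the relative scale, depth limits EGR3 and the late times of IER5L, EGR2, NR4A1 and CSRNP1.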
